A study of Homo sapiens with 9 samples.

Results

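The 10 genes described here encode the core of the human microRNA pathway. They are the Argonautes AGO1, AGO2, AGO3 and AGO4, the TNRC6 (GW182) scaffold proteins TNRC6A, TNRC6B and TNRC6C, and the processing proteins DROSHA, DGCR8 and DICER1. They were chosen by name as the members of these families, out of 58096 gene identifiers in the count files, and all 10 are among the 16072 genes that passed the filter on low counts. The family was picked with results of these libraries already known, so the counts of genes below are descriptions to be read against the share among all genes tested.

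The study measured total RNA of ALL-SIL, a human T-cell acute lymphoblastic leukaemia line that carries TLX1, a homeobox oncogene, after electroporation with siRNA. The control group received a scrambled siRNA, labelled 400 nM and 24 h, and the other 2 groups received the TLX1 siRNAs s46 or s47 for 24 h, with no dose in their labels. Each group has 3 libraries, and the labels leave unsaid whether the 3 were grown apart, so the spread behind each p-value may be technical. All 3 groups share the electroporation and carry an siRNA, and no library of untreated cells was analysed here. The comparisons of s46 and of s47 with scrambled use the same 3 control libraries and are not independent of each other. In a bulk sample, fewer cells of a type and less RNA per cell cannot be told apart.

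MicroRNAs are cut from long nuclear transcripts by the Microprocessor, in which DROSHA is the nuclease and DGCR8 binds the RNA. DICER1 makes the second cut in the cytoplasm, and the product is loaded into an Argonaute, which finds target transcripts by base pairing. Bound Argonaute recruits a TNRC6 protein, which in turn brings in the deadenylases that shorten the poly(A) tail. An siRNA such as those used here is also loaded into Argonautes. AGO2 is the Argonaute known for cutting a fully paired target, and AGO4 is usually held to lack that activity. The mature microRNAs were not analysed here.

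Reads assigned to genes on the sense strand ranged from 21134650 to 33393740 per library. TLX1 itself was at 186 ± 13.5 CPM (read counts scaled to the size of the library; SD, n = 3) with scrambled siRNA, 76.6 ± 11.9 with s46 and 70.8 ± 6.28 with s47, and fell by 1.34 ± 0.11 (SE) on the log2 scale for the mean of both siRNAs (edgeR quasi-likelihood test, Benjamini-Hochberg adjusted p 0.000394). Scrambled replicate 1 stood apart. It had the fewest reads, 14.4% of its reads mapped to several places against 6.36% to 7.34% in the other 8 libraries, and its log2 CPM correlated with the other 2 scrambled libraries at r = 0.967 and 0.975. All 8 markers of the T-cell line were present, from CD3D to LCK, while none of the 5 myeloid, 3 erythroid and 3 epithelial markers reached a mean of 1 CPM. CD79A and CD79B of the 5 B-cell markers and PDGFRB of the 3 stromal markers did.

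Of the 10 genes, 1 passed the test when both TLX1 siRNAs were averaged and set against scrambled. This was AGO4, which rose. The other 9 did not pass, and their log2 fold changes ran from -0.60 for DROSHA to 0.09 for TNRC6A. Over all 16072 genes tested, 91 passed (0.566%; 222 with the replicate number as a block), and 66 of them were higher (0.411%). The 10 genes had a median log2 fold change of -0.14 beside -0.03 for all genes, with 2 above 0 and 8 below. At an unadjusted p under 0.05 there were 4 of the 10 (AGO1, AGO4, TNRC6B and DROSHA), beside 17.8% of all genes. With s46 alone there were 2 (AGO4 and DROSHA, beside 11.9% of all genes), and with s47 alone 3 (AGO4, TNRC6B and DROSHA, beside 12.3%). Groups that did not overlap were few. With both siRNAs together they numbered 1 higher and 0 lower (4.47% and 3.65% of all genes tested). With s46 they were 1 higher and 1 lower (7.45% and 7.22%), with s47 1 and 1 (7.25% and 7.68%), and for s46 against s47 0 and 1 (2.68% and 2.4%).

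AGO4 lies on chromosome 1, at 35808172 to 35857890 on the plus strand of GRCh38 (ENSG00000134698.10). Its level was 45.1, 44.6 and 48.7 CPM in scrambled replicates 1, 2 and 3. It was 78.1, 71.8 and 75.1 CPM with s46 and 71.3, 73.4 and 68.0 CPM with s47. All 6 TLX1 siRNA libraries lay above all 3 scrambled libraries. AGO4 rose 1.58-fold with the mean of both siRNAs, a log2 fold change of 0.66 ± 0.10 (SE, edgeR adjusted p 0.00996). With s46 the log2 fold change was 0.70 ± 0.11 (adjusted p 0.0225) and with s47 it was 0.62 ± 0.11 (adjusted p 0.0330), by the same edgeR fit. In those comparisons AGO4 was the 1 gene of the 10 that passed, where 0.174% of all genes passed for s46 and 0.33% for s47. The numbers behind these values are 1006 to 2489 reads per library.

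**Figure D1:**
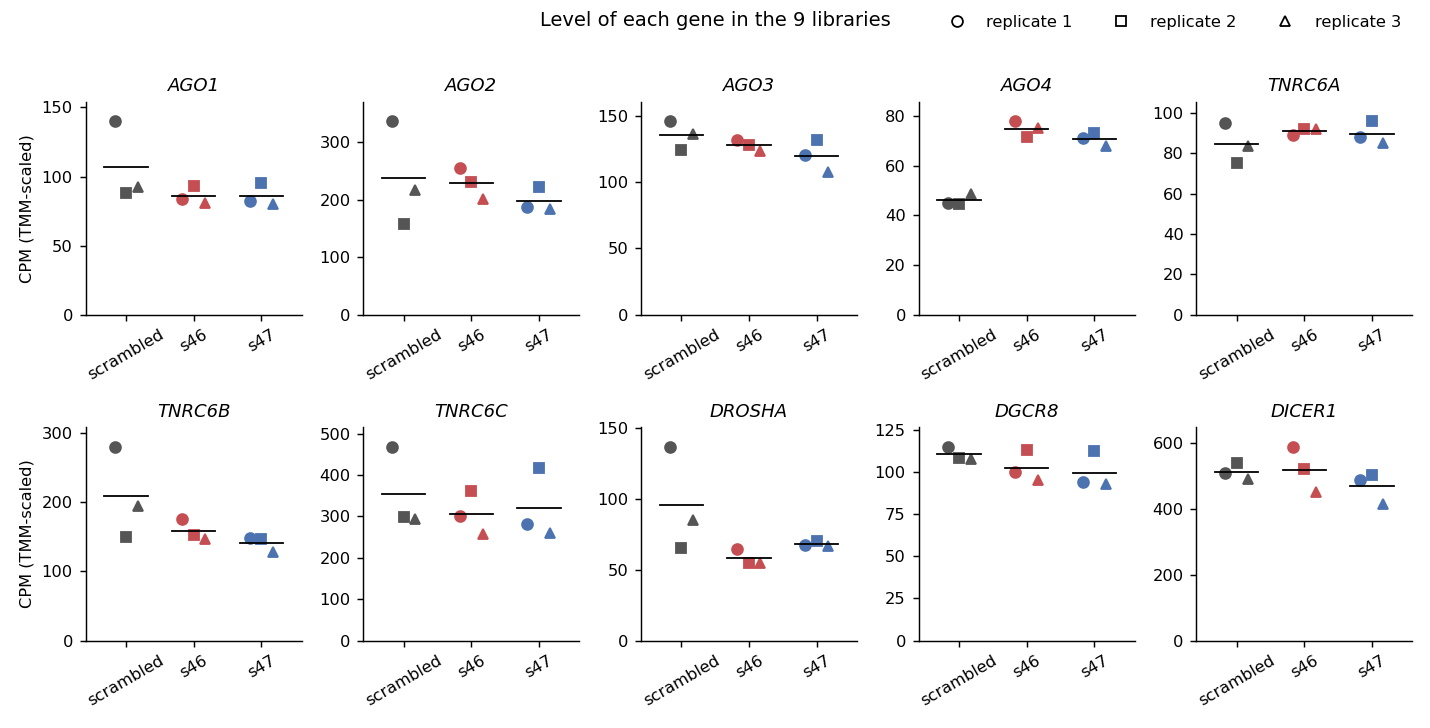
CPM (scaled by the trimmed mean of M values) of each of the 10 genes in the 9 libraries, with replicates marked by shape and group means as horizontal lines. AGO4 is the gene whose 6 TLX1 siRNA libraries (68.0 to 78.1 CPM) all lie above the scrambled ones (44.6 to 48.7 CPM), and scrambled replicate 1 (grey circle) is the highest point of 7 panels.

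The value for the mean of both siRNAs did not rest on 1 library. With each of the 9 libraries left out in turn it stayed between 0.64 and 0.71, and edgeR's adjusted p between 0.00548 and 0.0488. It was 0.65 without scrambled replicate 1, the library that stands apart. The calls for each siRNA alone rested on more of the libraries. That for s46 was lost without scrambled replicate 3, without s46 replicate 1, 2 or 3 and without s47 replicate 1 or 3, with adjusted p from 0.0107 to 0.149 over the 9 omissions. That for s47 was lost in 7 of the 9 omissions, all but those of scrambled replicates 1 and 2, with adjusted p from 0.0176 to 0.168. The difference between s46 and s47 for AGO4 was 0.08 on the log2 scale, with a 95% interval from -0.15 to 0.31. In that direct comparison none of the 10 genes passed, nor did any of the 16072 (0%; 113, or 0.703%, had an unadjusted p under 0.05 by edgeR, none of them among the 10, and DESeq2 also called 0).

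AGO4 is the first of 3 Argonaute genes that lie in a row on the same strand of chromosome 1. AGO1 starts 11917 bases after the end of AGO4, at 35869808 to 35930528, and AGO3 starts 189 bases after the end of AGO1, at 35930718 to 36072500. Neither neighbour passed the test. AGO1 was at 140, 87.9 and 92.2 CPM in the scrambled libraries, 84.0, 93.4 and 81.0 with s46, and 82.6, 95.4 and 79.9 with s47. Its high point was scrambled replicate 1, and the groups overlapped. The log2 fold change of AGO1 was -0.31 ± 0.14 (edgeR adjusted p 0.279), and -0.06 without scrambled replicate 1. AGO3 was at 146, 124 and 136 CPM in the scrambled libraries, 131, 128 and 123.4 with s46, and 120, 132 and 107 with s47. Its groups overlapped, and its log2 fold change was -0.13 ± 0.10 (edgeR adjusted p 0.485), and -0.08 without scrambled replicate 1. On the other side of AGO4 the nearest protein-coding gene tested, CLSPN, had 0.31 ± 0.16 (edgeR adjusted p 0.325). Beyond AGO3 the nearest such gene, ADPRHL2, had 0.06 ± 0.11 (edgeR adjusted p 0.798).

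AGO2, the only Argonaute of the 4 outside this row, lies on chromosome 8. It was at 337, 158 and 217 CPM with scrambled siRNA, 256, 230 and 201 with s46, and 188, 223 and 184 with s47. The scrambled libraries held both the highest and the lowest value of the 9. Its log2 fold change was -0.15 ± 0.19 (edgeR adjusted p 0.678) and turned to 0.19 without scrambled replicate 1.

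Ratios of reads within a library do not depend on how libraries are scaled. The reads of AGO4 were 44.2% of those of AGO1 in the scrambled libraries and 84.9% with the TLX1 siRNAs, as geometric means over 3 and 6 libraries. Against AGO2 the ratio was 20.4% and 34.3%, and against AGO3 it was 34.1% and 59.1%. In log2 units the differences were 0.94, 0.75 and 0.79, and without scrambled replicate 1 they were 0.71, 0.45 and 0.72. These 3 ratios were taken up after the values of AGO4 had been seen and carry no test.

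Per kilobase of annotated exon, AGO4 was at 6.35 CPM per kb with scrambled siRNA, beside 6.41 for AGO3 and 6.55 for TNRC6A, whose ranges overlapped its own. This mean was the lowest of the 10, but it was so through scrambled replicate 1, and in replicates 2 and 3 AGO4 lay above both AGO3 and TNRC6A. With s46 it was at 10.3 and with s47 at 9.76 CPM per kb, the fifth highest mean in each, and in both groups its lowest library lay above the highest libraries of AGO1 and AGO3. Of the summed CPM per kb of the 4 Argonautes, AGO4 made up 18.5% ± 4.07 with scrambled siRNA, 27.9% ± 1.65 with s46 and 28.7% ± 1.35 with s47 (SD, n = 3 each). By library its share was 13.9%, 21.7% and 20.0% with scrambled siRNA and 26.6% to 29.8% in the other 6. The sum itself was 35.4 ± 8.27, 37.0 ± 2.22 and 34.1 ± 2.81 CPM per kb. By library it was 44.5, 28.3 and 33.5 with scrambled siRNA, so the mean and spread of that group rest largely on replicate 1. It was 34.7 to 39.2 with s46, above scrambled replicates 2 and 3 in every library. With s47 it was 31.8 to 37.2, which overlapped them. Whether the sum changed was not tested.

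**Figure D2:**
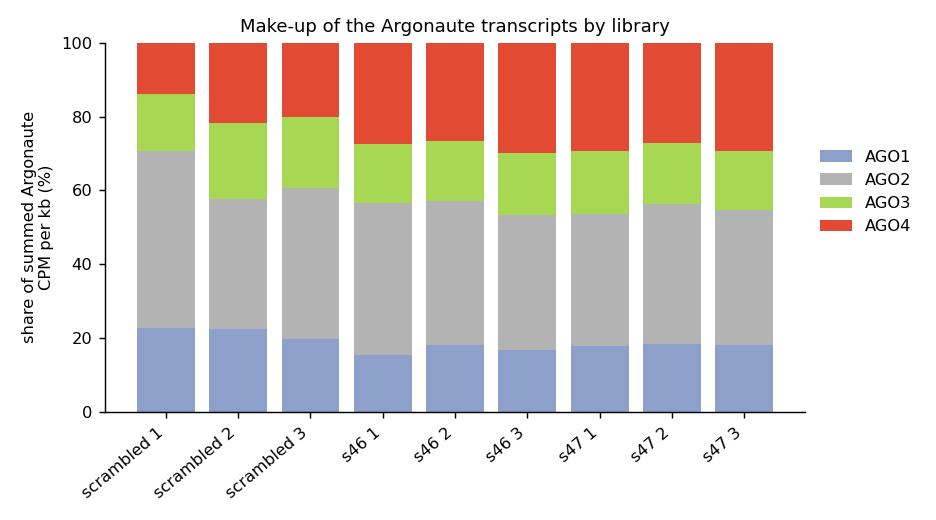
Share of each Argonaute in the summed CPM per kb of the 4, in percent, for each of the 9 libraries. The share of AGO4 (red) is 13.9% to 21.7% in the scrambled libraries and 26.6% to 29.8% with the TLX1 siRNAs, while AGO2 (grey) is the largest share in every library.

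The 3′ untranslated regions (UTRs) of the 10 genes were searched on the sense strand for 3 words of 7 bases. These were GCAGTAC, its overlapping neighbour CAGTACA, and the unrelated word AATCACT. An earlier look at these same libraries had found these words to go with the direction of change over all genes, with AGO4 among the genes looked at, so their presence here supports nothing by itself. In the GENCODE 29 transcript with the longest 3′ UTR, GCAGTAC occurs 2 times in AGO4 and once in AGO3, and not in the other 8 genes. It occurs in 5.14% of the 11047 tested genes with an annotated 3′ UTR, and in 13.3% of the 2325 whose UTR is at least 3000 bases long. Both AGO4 copies run on into the overlapping word CAGTACA. The sites are shown because AGO4 passed the test and AGO3 did not, with the word in capitals, 5′ to 3′ on the plus strand of GRCh38.
AGO4 at chr1:35854831-35854859: cacgactacttGCAGTACaaattttttgc
AGO4 at chr1:35857689-35857717: ctaataagtatGCAGTACactgtaatggc
AGO3 at chr1:36062353-36062381: tgctcataaagGCAGTACcaaatcatcat
The 3′ UTR is 4285 bases long in AGO4 and 16755 in AGO3. A match of letters describes the transcript and does not show that anything binds there.

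CAGTACA, counted whatever base precedes it, was found in 6 of the 10 genes (AGO2, AGO3, AGO4, TNRC6A, TNRC6B and TNRC6C), in AGO4 only as the continuation of the 2 sites above. It occurs in 8.9% of all tested genes with a 3′ UTR and in 22.6% of those with at least 3000 bases. AGO2 holds 2 copies, as many as AGO4, and AGO3 holds 1. Neither AGO2 nor AGO3 passed the test, and their copies are not shown here. The sites of the 3 scaffold genes, 1 in each, are shown beside those of AGO4 because none of the 3 passed the test.
TNRC6A at chr16:24825265-24825293: aaaaattttaaCAGTACAgaatttgccat
TNRC6B at chr22:40330454-40330482: agagaggaggaCAGTACAtcctatgtgtg
TNRC6C at chr17:78105545-78105573: caggttgacatCAGTACAcagaaacaggc
AATCACT was found in AGO2, AGO3, AGO4, TNRC6B and DICER1, 5 of 10 genes, beside 15.1% of all and 39.1% of the long UTRs. DROSHA and DGCR8, with UTRs of 935 and 1767 bases, and AGO1, with 10921 bases, hold none of the 3 words.

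The TNRC6 proteins carry the repression signal from Argonaute to the deadenylases. TNRC6A (chromosome 16) was at 94.9, 75.2 and 83.8 CPM with scrambled siRNA, 89.0, 92.0 and 91.8 with s46, and 87.9, 96.0 and 85.3 with s47. Its groups overlapped, with a log2 fold change of 0.09 ± 0.10 (edgeR adjusted p 0.630) and a 95% interval from -0.13 to 0.31. Omission of scrambled replicate 1 gave 0.19, and that of scrambled replicate 2 gave 0.02. TNRC6C (chromosome 17) was at 469, 299 and 294 CPM with scrambled siRNA, 301, 363 and 258 with s46, and 282, 416 and 260 with s47. Within each TLX1 siRNA group replicate 2 was the highest, and within the scrambled group replicate 1. The log2 fold change of TNRC6C was -0.17 ± 0.19 (edgeR adjusted p 0.627), and 0.08 without scrambled replicate 1.

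TNRC6B (chromosome 22) was at 280, 150 and 194 CPM with scrambled siRNA, 176, 153 and 147 with s46, and 148, 147 and 128 with s47. All s47 libraries lay below all scrambled ones, while s46 overlapped the controls. The gap was small, with 150 CPM in the lowest scrambled library and 148 in the highest with s47. Averaged over both siRNAs its log2 fold change was -0.48 ± 0.16 (edgeR adjusted p 0.203). It was -0.20 without scrambled replicate 1 (adjusted p 0.672) and -0.66 without scrambled replicate 2, where it passed the test (adjusted p 0.0204), as did 10.1% of all genes in that fit. It also passed with no filter on low counts (adjusted p 0.0234; 2.8% of all genes).

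DROSHA (chromosome 5), the nuclease of the Microprocessor, was the gene with the lowest fold change of the 10. It was at 137, 65.0 and 84.7 CPM with scrambled siRNA, 64.3, 55.0 and 54.6 with s46, and 67.4, 70.2 and 66.9 with s47. All s46 libraries lay below all scrambled ones and also below all s47 libraries. The gap to the controls was small, with 65.0 CPM in the lowest scrambled library and 64.3 in the highest with s46. Averaged over both siRNAs its log2 fold change was -0.60 ± 0.18 (edgeR adjusted p 0.166). It was -0.25 without scrambled replicate 1 (adjusted p 0.553) and -0.81 without scrambled replicate 2 (adjusted p 0.0178). With no filter on low counts the adjusted p was 0.00123, and with DESeq2 it was 0.057. Over all genes, 10.1% passed without scrambled replicate 2, 2.8% with no filter and 3.37% with DESeq2. The difference of s46 from s47 was -0.23 on the log2 scale, with a 95% interval from -0.69 to 0.22.

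DGCR8 (chromosome 22), the RNA-binding partner of DROSHA, varied little. It was at 115, 108 and 108 CPM with scrambled siRNA, 99.7, 113 and 95.2 with s46, and 93.9, 112 and 92.5 with s47, so the groups overlapped. Its log2 fold change was -0.13 ± 0.10 (edgeR adjusted p 0.519). DICER1 (chromosome 14) was at 508, 539 and 492 CPM with scrambled siRNA, 589, 520 and 450 with s46, and 489, 504 and 415 with s47. Replicate 3 was the lowest library of each group. Its log2 fold change was -0.05 ± 0.11 (edgeR adjusted p 0.824), with a 95% interval from -0.30 to 0.19, and lay between -0.10 and -0.00042 with 1 library left out.

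**Figure D3:**
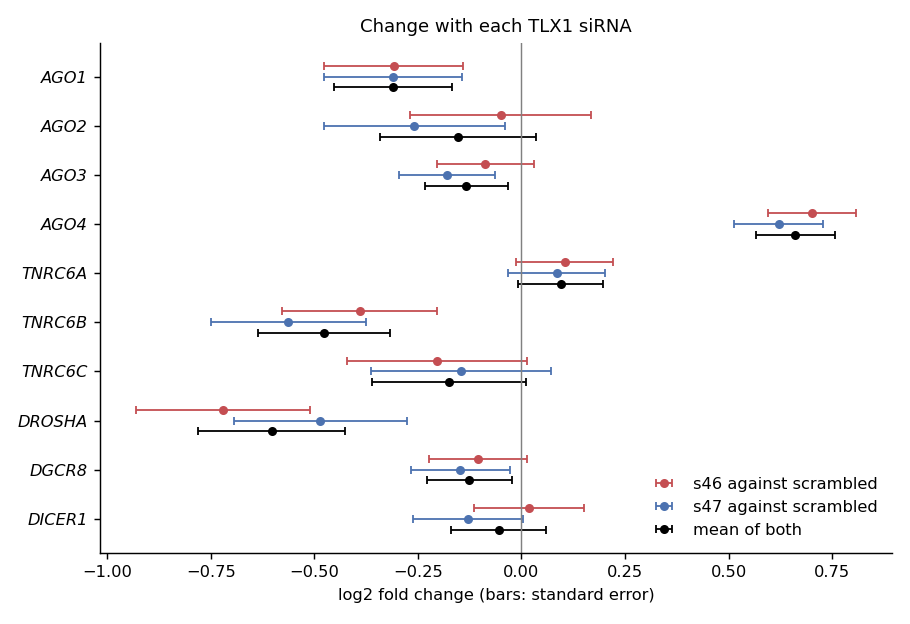
Log2 fold change of each gene with s46, with s47 and for the mean of both against scrambled siRNA, with standard errors from the edgeR fit as bars. AGO4 lies at 0.62 to 0.70, apart from the other 9 genes, and the widest gap of s46 from s47, which share their controls, is -0.23 for DROSHA.

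Scrambled replicate 1 was the highest of the 9 libraries in 7 of the 10 genes, where 31.2% of all genes tested had their highest value in it. The 7 were AGO1, AGO2, AGO3, TNRC6B, TNRC6C, DROSHA and DGCR8. Its level was 2.07 times the mean of the other 8 libraries for DROSHA, 1.80 times for TNRC6B, 1.63 for AGO2, 1.61 for AGO1 and 1.52 for TNRC6C. The ratio was 1.02 for DICER1 and 1.08 for TNRC6A. This library also had the high share of reads at several places given above, and the part of that share in these levels was not tested. Without it the median log2 fold change of the 10 genes was -0.06.

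**Figure D4:**
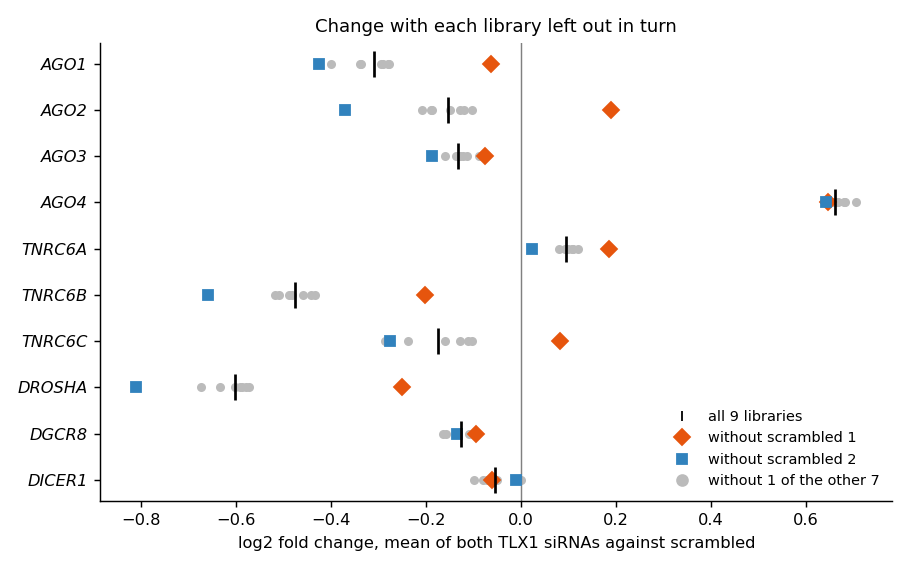
Log2 fold change of each gene, averaged over both TLX1 siRNAs and against scrambled siRNA, with all 9 libraries (bar) and with each library left out (points). AGO4 stays between 0.64 and 0.71, while DROSHA moves from -0.81 without scrambled replicate 2 to -0.25 without scrambled replicate 1, and AGO2 and TNRC6C cross 0.

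With scrambled siRNA, DICER1 (41.7 CPM per kb) and TNRC6C (31.8) had the highest levels per kilobase of exon, and their ranges over libraries overlapped. TNRC6C lay above all 3 libraries of DGCR8 (15.1), which overlapped AGO2 (15.0). From AGO2 downwards, through DROSHA (12.3), TNRC6B (10.4), AGO1 (7.69), TNRC6A, AGO3 and AGO4, each neighbour in the order overlapped the next. Over all 9 libraries, DICER1 was above TNRC6C in 8, with scrambled replicate 1 the exception. TNRC6C was above DGCR8 in all 9. The 3 scaffold genes differed in level, with TNRC6C above TNRC6B and TNRC6A in every library.

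The gene most like AGO4 over the 9 libraries was PTBP3, an RNA-binding splicing regulator, with a Pearson r of 0.993 between log2 CPM values. AGO1 was most like KMT2B (0.999), AGO2 like CRACR2B (0.970), AGO3 like GON4L (0.984), TNRC6B like GUSBP1 (0.992), and DROSHA like PLEKHG4B (0.983). For TNRC6A, TNRC6C, DGCR8 and DICER1 the nearest genes were AP005482.2 (0.950), FBRSL1 (0.965), TRPV2 (0.968) and AP001486.2 (0.926). Each is the highest of 16071 correlations over the same 9 libraries, which share groups and depth, and they are given as descriptions. The 9 include scrambled replicate 1, which stands apart. Without it the log2 fold change of KMT2B moved from -0.95 to -0.19 and that of PLEKHG4B from -0.59 to -0.17. That of PTBP3 stayed at 0.44.

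The partners of these genes were followed through 6 further lists with 97 names, of which 92 were tested. Groups that did not overlap were seen for 11 of the 92 as higher with both siRNAs and for 2 as lower. The shares of all genes tested were 4.47% and 3.65%. Averaged over both TLX1 siRNAs, 1 of the 92 passed against scrambled, LSM14A, and it was higher. LSM14A, a protein of cytoplasmic RNA granules that binds the repressing helicase DDX6, was at 86.8, 130 and 114 CPM with scrambled siRNA. It was at 216, 214 and 206 CPM with s46 and 226, 198 and 200 with s47. The groups did not overlap, and LSM14A rose by a log2 fold change of 0.93 ± 0.13 (edgeR adjusted p 0.00745), 0.78 without scrambled replicate 1. Its 3′ UTR of 2127 bases holds GCAGTAC 2 times, shown for comparison with AGO4, and it was among the genes from which that word was picked.
LSM14A at chr19:34227645-34227673: gttaaactaaaGCAGTACttcagtgggac
LSM14A at chr19:34229210-34229238: atggcatacctGCAGTACcccttacaata

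LSM14A belongs to the deadenylation, decapping and repression effectors, the machinery downstream of TNRC6, where the other 27 genes tested did not pass and the median log2 fold change was 0.03, and 0.0024 without scrambled replicate 1. PATL1, a decapping factor, was the lowest at -0.58 (edgeR adjusted p 0.213). It had -0.14 without scrambled replicate 1, and passed as lower without scrambled replicate 2 (-0.77, adjusted p 0.0345) and with no filter on low counts (adjusted p 0.00379). Among the Dicer partners and Argonaute loading chaperones, 0 of 11 passed, all 11 log2 fold changes were above 0 and the median was 0.30. They ran from PTGES3, the HSP90 co-chaperone p23 (0.17 ± 0.11, adjusted p 0.401), to FKBP4, another HSP90 co-chaperone (0.47 ± 0.11, adjusted p 0.0753, edgeR). Scrambled replicate 1 was the lowest library of 9 of these 11 genes, where 29.04% of all genes tested had their lowest value in it. Without it the median was 0.21 and 10 of 11 were above 0. FKBP4 passed with DESeq2 (adjusted p 0.00286), with no filter (0.0129), with the replicate number as a block (0.0342) and without scrambled replicate 2 (0.0232). The shares of all genes that passed in those 4 fits were 3.37%, 2.8%, 1.38% and 10.1%.

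Among the nuclear processing cofactors and export factors, 0 of 19 passed and the median was 0.13, and 0.08 without scrambled replicate 1. That library was the lowest for 11 of the 19 and the highest for 4 (29.04% and 31.2% of all genes tested). The gene with the highest log2 fold change was NCBP2, a subunit of the nuclear cap-binding complex. It had 0.36 ± 0.14 (edgeR adjusted p 0.233), and 0.17 without scrambled replicate 1. Among the Argonaute regulators and microRNA turnover factors, 0 of 20 passed and the median was -0.08, and -0.0052 without scrambled replicate 1. XRN2, a nuclear exonuclease, had 0.40 ± 0.13 (adjusted p 0.195) and ANKRD52, a subunit of the phosphatase that acts on Argonaute, had -1.06 ± 0.37 (adjusted p 0.223, edgeR). XRN2 had 0.24 without scrambled replicate 1. ANKRD52 was high in scrambled replicate 1, at 125 CPM against 24.8 to 41.5 CPM elsewhere, and had -0.23 without it.

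The PIWI proteins, germline relatives of the Argonautes, were at low levels. Of 3 tested none passed, and PIWIL3 was between 0.359 and 0.514 CPM with scrambled siRNA and between 0.915 and 1.83 CPM with the TLX1 siRNAs (1.53 ± 0.35, edgeR adjusted p 0.0792). PIWIL3 passed with no filter (adjusted p 0.00790), DESeq2 (0.0103) and the replicate block (0.0288), and without scrambled replicate 2 (0.0403). PIWIL2 had -0.85 ± 0.45 (adjusted p 0.330), and PIWIL1 did not pass the filter on counts. Among 11 host transcripts of microRNAs none passed, with a median of 0.02, and -0.11 without scrambled replicate 1. MIR181A1HG, the host of miR-181a and miR-181b, was at 46.4, 35.9 and 52.5 CPM with scrambled siRNA, at 99.9, 67.4 and 79.2 CPM with s46 and at 82.1, 82.2 and 59.3 CPM with s47. Its groups did not overlap, as for 4.47% of all genes tested in that direction, and its log2 fold change was 0.80 ± 0.17 (edgeR adjusted p 0.0556). It passed with no filter (adjusted p 1.14e-06), DESeq2 (0.000586), unstranded counts (0.0419) and the replicate block (0.0436), and without scrambled replicate 2 (0.0344). Over all genes, 2.8% passed with no filter, 3.37% with DESeq2, 0.419% with unstranded counts and 1.38% with the replicate block. MIRLET7BHG was the lowest, at -0.55 ± 0.24 (adjusted p 0.266), and had -0.22 without scrambled replicate 1. Host transcripts do not measure the mature microRNAs. Without scrambled replicate 2, where 10.1% of all genes tested passed, the calls were 3 among the repression effectors, 4 among the Dicer partners, 5 among the nuclear factors, 3 among the Argonaute regulators (XRN2 higher and ANKRD52 lower among them), 1 PIWI gene and 3 host transcripts.

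**Figure D5:**
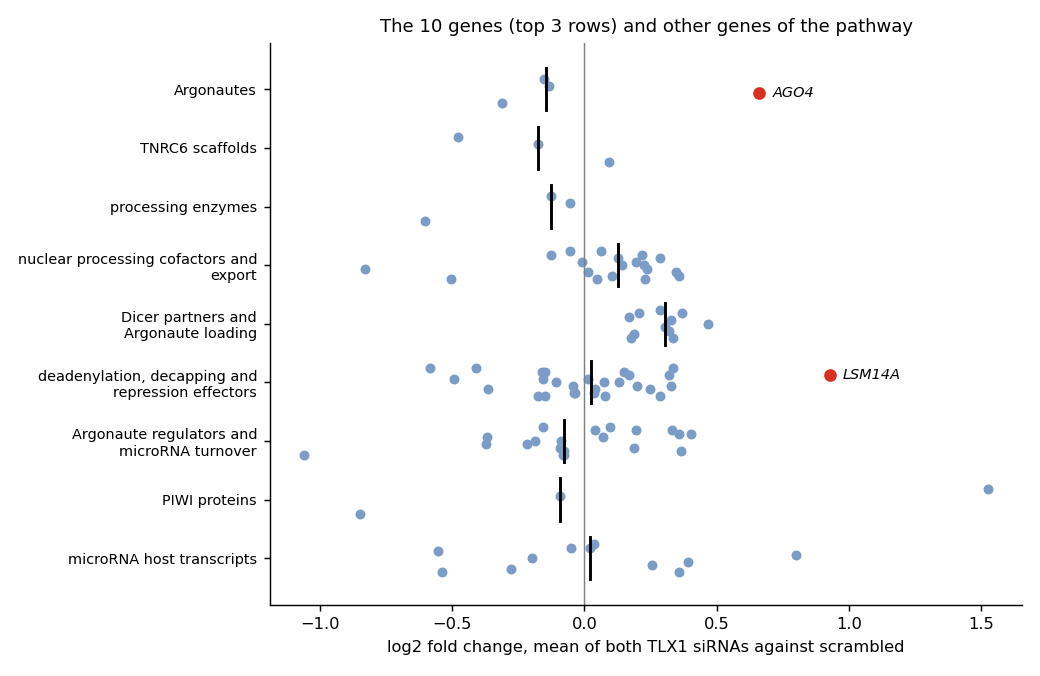
Log2 fold change averaged over both TLX1 siRNAs and against scrambled siRNA, 1 point per gene tested, for the 10 genes in 3 rows and the 6 further lists below, with the median of each row as a bar. AGO4 (0.66) and LSM14A (0.93), in red, have an edgeR adjusted p under 0.05, and the 11 Dicer partners and loading factors all lie above 0.

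The sequences of the 10 genes are largely their own. Of all 50-base words in their GENCODE 29 transcripts, between 0% and 1.26% also occur in a transcript of another gene, the most in AGO3, and 0.262% for AGO4. On the strand opposite each gene, reads were at most 2.29% of the stranded reads at that gene in any library, and none of the 6 genes with enough of them passed the edgeR test there. DGCR8 overlaps TRMT2A on the other strand, and TNRC6C and DICER1 overlap the antisense genes TNRC6C-AS1 and DICER1-AS1.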

How the data were processed

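Total RNA of 9 libraries was sequenced after rRNA depletion with a stranded kit, per the labels' protocols. The deposited files hold raw read counts per gene in 3 columns by strand. The genome build was GRCh38 per the submitters' processing notes, and no source used here names the aligner, the counter or the annotation release. The column for the sense strand was used. The 4 summary lines that name no gene were left out (multimapping reads 6.36% to 14.4% per library). Symbols, exon lengths and 3′ UTRs came from GENCODE 29, which matched 57492 of 58096 identifiers without their version.

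The counts of all 9 libraries were fitted together in edgeR 4.0.16 (R 4.3.3), with TMM scaling, a count minimum of 10 (filterByExpr) and the robust quasi-likelihood test. Adjusted p is Benjamini-Hochberg over 16072 genes, with a threshold of 0.05. The steps were run on simulated data, with the outcome not reported here. The simulation held no library that stands apart and no effect of replicate number, so it cannot speak to either. DESeq2 1.42.0, limma 3.58.1 (voom), other scalings, filters, unstranded counts, a replicate block and omission of each library were tried. The members and lists were chosen with earlier results of these data known. Besides the 10 genes and TLX1, the text names, per list, the genes that passed or else the highest and lowest, and per gene the best correlated gene; the flanking genes CLSPN and ADPRHL2, and PATL1, were added afterwards. The lowest gene of the nuclear processing list is not reported here.

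Replicate numbers come from the labels, which do not say what they mark. Deviations from the group means correlated between same-numbered libraries at -0.03 to 0.44, and between libraries of other numbers at -0.31 to 0.17. Each of the 9 libraries correlated best with 1 of its own number, while the main fit has no replicate block. Of the same-numbered pairs 8 of 9 exceeded 0.1, beside 1 of 18 other pairs. All 3 same-numbered pairs exceeded 0.1 for s46 with scrambled and for s46 with s47. For s47 with scrambled, replicate 2 gave -0.03. Protein sequences of the 10 genes were not used here.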

Additional observations from a re-analysis of the deposited data

How the results depend on the processing

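Of the 10 genes, the number called for the mean of both siRNAs against scrambled was 1, and 3 with no filter on low counts. Of all genes tested, 0.566% and 2.8% passed in those fits. With 1 library left out the number was 1 to 3, the 3 being reached without scrambled replicate 2. There TNRC6B and DROSHA passed as lower, beside 10.1% of all genes called in either direction. For s46 the number was 1, but 0 with library totals, with only the groups compared and without the 3 libraries of number 1, and 2 with no filter. For s47 it was 1, with 0 and 2 under those same settings. With no filter, 384 of the 31261 genes tested passed for s46 and 432 for s47. With 1 library left out the number among the 10 genes was 0 to 2 for s46 and 0 to 2 for s47. AGO4 kept its call for the mean of both under all 18 alternatives, at 0.59 to 0.71. Of 750 log2 fold changes of the 10 genes recomputed, 723 kept their side of the threshold with the same direction of any call. Most of the 750 were not called at the start, and for s46 against s47 none of the 10 genes was called under any setting. The call of AGO4 for s46 was lost in 6 of 9 omissions and 3 of 10 other settings. For s47 it was lost in 7 of 9 and 3 of 10.

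Over all genes, the mean of both gave 91 calls, and 876 with no filter, 458 with DESeq2, and 22 to 1650 with 1 library left out. The share of calls that were higher was 72.5%, but 62.0% with library totals, 37.1% with no filter, 55.2% with DESeq2 and 49.3% without scrambled replicate 2. For s46 the 28 calls became 14 with library totals, 384 with no filter, 196 with DESeq2, 6 with only the groups compared and 4 to 225 with 1 library left out. For s47 the 53 became 432, 203 and 8 with no filter, DESeq2 and only the groups compared, 33 without the libraries of number 1, and 4 to 275 with 1 library left out. For s46 against s47, no filter gave 3 in place of 0. The median of the 10 genes there was 0.06, and 0.0044 to 0.14 with 1 library left out. The cause of these shifts was not tested. With the replicate block the calls numbered 222 for the mean of both, 74 for s46, 125 for s47 and 0 for s46 against s47, and the block changed no call among the 10 genes. Among the 92 genes of the 6 further lists it added MIR181A1HG, FKBP4 and PIWIL3 to LSM14A.

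AGO4, at 0.66 with an SE of 0.10, passed, while DROSHA, at -0.60 with an SE of 0.18, and TNRC6B, at -0.48 with an SE of 0.16, did not, except with no filter and without scrambled replicate 2. The PIWI genes have few reads, and PIWIL3 had an SE of 0.35.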
